A study of Mus musculus with 6 samples.

Results

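The genes described here encode 9 molecules through which a tumour cell can be recognised by, or can restrain, immune cells: the surface ligands Cd274, Cd47, Cd276, Pvr and Cd200, the adhesion ligand Icam1, and the galectins Lgals1, Lgals3 and Lgals9. They were taken by gene symbol, and all 9 were found, each as 1 row, among the 22740 protein-coding genes of the deposited count table. RNA was sequenced from B16 cells, a mouse melanoma line, named B16-F10 in the design text and labelled as lacking the BRAF V600E mutation. The treated cells received 1 uM CX-5461 for 3 days and the control cells received the solvent DMSO, with 3 libraries in each group. CX-5461 blocks RNA polymerase I, which transcribes ribosomal RNA genes, and it is also known to stabilise G-quadruplex DNA. Both groups were grown in the same medium, with no immune cells named in the labels.

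Cd274 encodes PD-L1, which engages the receptor PD-1 and restrains T cells. Cd47 is the "don't eat me" signal read by SIRP-alpha on macrophages, and Cd276 (B7-H3) is a B7-family molecule whose receptor is not settled. Pvr (CD155) is bound by the activating receptor CD226 and by the inhibitory receptors TIGIT and CD96, and Cd200 restrains myeloid cells through its own receptor. Icam1 is the ligand of the leukocyte integrin LFA-1. Galectins are lectins that bind beta-galactosides on glycoproteins: galectin-1 and galectin-3 are abundant in many tumours, and galectin-9 has been described as a ligand of TIM-3 (Havcr2). Transcription of Cd274, Icam1 and Lgals9 is known to be raised by interferon gamma, and that of Icam1 also by NF-kB.

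With CX-5461 the 3 galectin transcripts rose and the transcripts of Cd274, Pvr and Cd47 fell, by 1.57-fold to 1.90-fold and by 2.24-fold to 2.82-fold. Cd276 and Icam1 did not pass the test, and Cd200 was silent. Of the 9 genes, 8 had enough counts to be tested, so 3 of 8 were higher and 3 of 8 lower at an adjusted p below 0.05 (edgeR quasi-likelihood test, adjusted over all 12198 genes tested). Across those 12198 genes 37.2% were called higher and 36.5% lower, or 73.7% in either direction, so the number of calls among the 8 lies near the background. Libraries of the groups did not overlap for 7 of the 8, against 76.2% of all tested genes. Levels are given as CPM, a gene's share of its library's counts after TMM scaling, and in bulk RNA fewer cells that express a gene and less RNA per cell cannot be told apart.

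**Figure D1:**
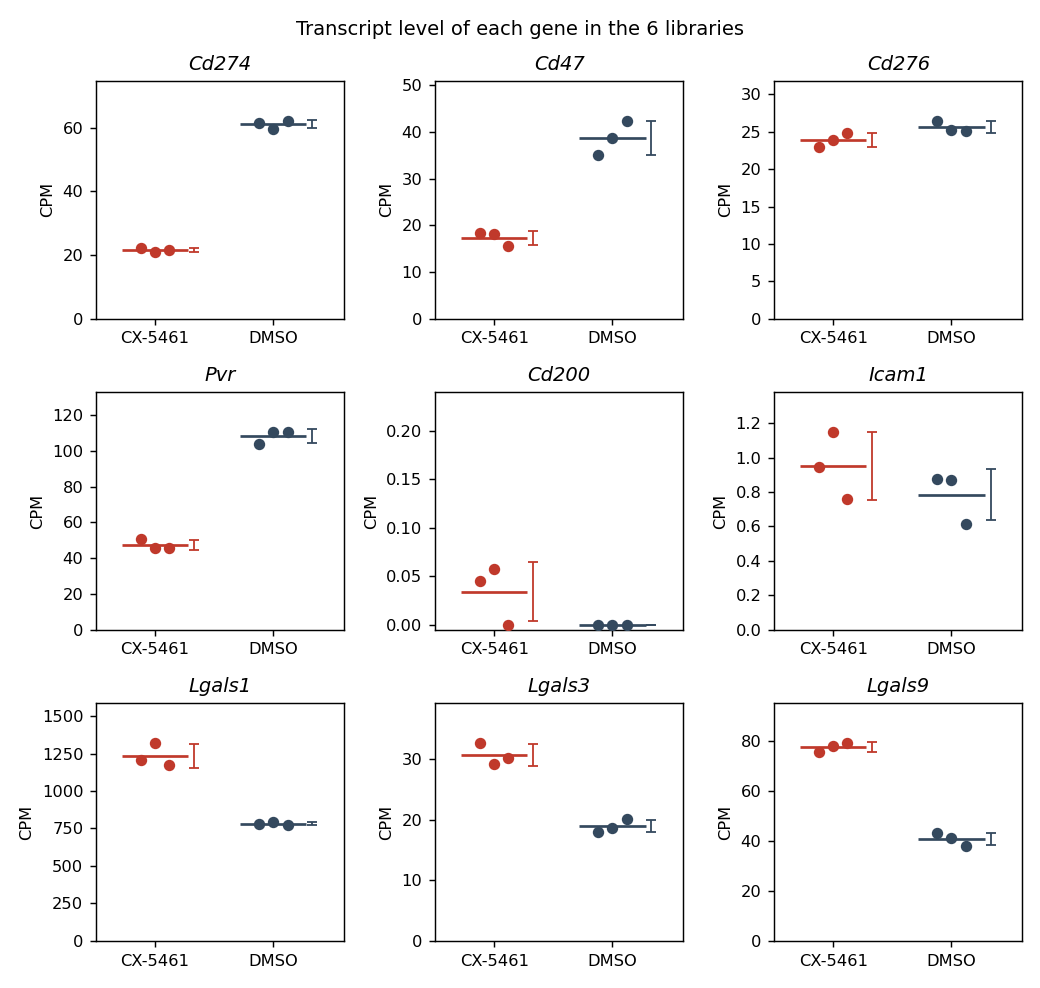
Level of each of the 9 genes in the 6 libraries, in CPM on linear axes with a scale of its own for each gene; points are libraries, horizontal lines group means and bars 1 SD (n = 3 per group). The CX-5461 points lie below all DMSO points for Cd274, Cd47, Pvr and Cd276 and above them for the 3 galectins, they overlap for Icam1, and Cd200 reaches at most 0.0575 CPM.

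The libraries held 17877481 to 22908309 counts with CX-5461 and 17573990 to 20198979 with DMSO. Mitochondrial genes made up 2.7% to 3.4% of each CX-5461 library and 1.7% to 1.84% of each DMSO library, and the part of this difference in the results was not tested. Counts of replicate pairs gave a chi-square, divided by its degrees of freedom, of 5.63 to 9.36 with CX-5461 and 1.58 to 2.57 with DMSO. The melanocytic identity of the cells was clear from 10 of 10 markers of that lineage, all of them tested. They summed to 29730 to 32280 CPM with CX-5461, against 22880 to 23760 CPM with DMSO. All 10 were higher with CX-5461, where 37.2% of all tested genes were called higher. None was lower, also at an unadjusted p below 0.05 and with DESeq2 or limma-voom. Markers of leukocytes, fibroblasts and endothelial cells, 15, 8 and 8 genes, summed to 16.2 to 18.2, 31.1 to 34.5 and 26.1 to 34.0 CPM with CX-5461, and to 11.5 to 12.5, 12.6 to 16.6 and 3.23 to 3.96 CPM with DMSO. Of these lists 2, 3 and 1 genes could be tested, and Cd68, Lyz2, Col1a2 and Vwf, named after their values were seen, supplied most of the sums with CX-5461. Lyz2, Col1a2 and Vwf were higher with CX-5461 (4.62-fold, 11.4-fold and 8.9-fold), and Col1a1 and Pdgfra lower (2.46-fold and 1.29-fold). Cd68 did not pass. In the leukocyte, fibroblast and endothelial lists 11, 5 and 5 genes had at most 3 counts in every library. Among these, Cd3e, Cd8a, Itgax, Col3a1, Thy1 and Cdh5 had no count in any library, and Ptprc and Cd4 at most 1.

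Cd274 (chromosome 19, 29367455 to 29388095, GRCm38) had 22.3, 20.99 and 21.7 CPM in the CX-5461 libraries, against 61.5, 59.7 and 62.2 CPM in the DMSO libraries. The DMSO libraries all lay far above the treated ones, and the spread within each group was small. The log2 change was -1.49 ± 0.06 (SE), a 2.82-fold fall with an adjusted p of 6.03e-12. In size this change exceeded 92% of those of all tested genes. An antisense gene, AC119228.1, overlaps 511 exonic bases of Cd274, and since use of strand in counting is not given, its reads cannot be told apart from those of Cd274. Of the 50-base stretches of the longest Cd274 transcript 12.43% occur in another annotated gene.

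Pvr (chromosome 7, 19903578 to 19921160) had 50.4, 45.7 and 45.6 CPM with CX-5461, against 103.8, 110.4 and 110.6 CPM with DMSO. No treated library reached the lowest control library. It fell by 1.2 ± 0.06 on the log2 scale, or 2.29-fold (adjusted p = 3.57e-11). No 50-base stretch of its longest annotated transcript occurs in another annotated gene. Pvr and Cd47 have similar exonic lengths, 6.12 and 6.28 kb, and the ratio of their counts was 2.76, 2.53 and 2.94 with CX-5461, against 2.96, 2.85 and 2.61 with DMSO. These ratios overlap between the groups.

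Cd47 (chromosome 16, 49800533 to 49915010) had 18.3, 18.1 and 15.5 CPM with CX-5461, against 35.0, 38.8 and 42.4 CPM with DMSO. The groups stood well apart. The log2 change was -1.16 ± 0.09, a 2.24-fold fall (adjusted p = 8.49e-09). Cd47 is the longest of the 9 genes, with 114.48 kb in the annotation used, and the 1033 tested genes that span 100 to 200 kb had a median log2 change of 0.32, above the -0.005 of all tested genes. The other members lie in span classes with medians between -0.09 and -0.07.

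Cd276 (chromosome 9, 58524298 to 58555437) had 23.01, 23.9 and 24.8 CPM with CX-5461, against 26.5, 25.2 and 25.1 CPM with DMSO. Every treated library lay below every control library, but by little. The log2 change was -0.10 ± 0.07 and did not pass (adjusted p = 0.207), and its 95% interval runs from 0.842-fold to 1.03-fold. A gene on the other strand, Gm10657, overlaps 416 of its exonic bases. When counts were scaled to library totals alone it passed as lower, at -0.17 (adjusted p = 0.0386, with up to 0.403 over the alternatives). Cd274 and Cd276 have nearly equal exonic lengths, 3.62 and 3.66 kb, so their counts can be set against each other within a library. The ratio of Cd274 to Cd276 counts was 0.971, 0.877 and 0.874 with CX-5461, against 2.32, 2.37 and 2.48 with DMSO. Cd274 thus had more counts than Cd276 in each control library and slightly fewer in each treated one. In CX-5461 replicate 1 the counts were 496 for Cd274 and 511 for Cd276. Both genes overlap a gene on the other strand, so the order of the 2 transcripts in treated cells is not settled.

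Cd200 (chromosome 16, 45382135 to 45409053) was silent. It had 1, 1 and 0 counts in the CX-5461 libraries and none in any DMSO library, where 3 counts, the limit that a count of 0 allows, equal 0.145 to 0.167 CPM. No fold change is given. Icam1 (chromosome 9, 21015985 to 21028817) was barely detected, with 21, 20 and 15 counts in the CX-5461 libraries against 16, 18 and 11 in the DMSO libraries. These are 0.946, 1.15 and 0.758 CPM with CX-5461 and 0.874, 0.869 and 0.614 CPM with DMSO, and the groups overlap. The log2 change of Icam1 was 0.26 ± 0.29 (adjusted p = 0.443), with a 95% interval of 0.774-fold to 1.84-fold. Changes within that interval are not excluded. An antisense gene, Gm47079, overlaps 511 exonic bases of Icam1, and 18.58% of the 50-base stretches of its longest transcript occur in another annotated gene.

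Lgals1 (chromosome 15, 78926725 to 78930465), which encodes galectin-1, was by far the most abundant of the 9. It had 1206, 1321 and 1171 CPM with CX-5461, against 780.1, 792.8 and 776.6 CPM with DMSO. Lgals9 (chromosome 11, 78962974 to 78984946) had 75.6, 78.0 and 79.2 CPM with CX-5461, against 43.0, 41.4 and 38.0 CPM with DMSO. Both transcripts were higher in every treated library than in any control library. Lgals3 (chromosome 14, 47367751 to 47386160) had 32.7, 29.2 and 30.3 CPM with CX-5461, against 18.1, 18.7 and 20.2 CPM with DMSO, again with no overlap. The log2 changes were 0.65 ± 0.05 for Lgals1 (adjusted p = 7.47e-09), 0.93 ± 0.06 for Lgals9 (adjusted p = 9.6e-10) and 0.70 ± 0.08 for Lgals3 (adjusted p = 6.39e-07), or 1.57-fold, 1.90-fold and 1.62-fold. The 95% intervals of Lgals1 (0.55 to 0.76) and Lgals3 (0.54 to 0.86) overlap, while that of Lgals9 (0.81 to 1.05) lies above the first and overlaps the second, and differences between the 3 were not tested. Summed over the 3 genes, galectin transcripts came to 1315, 1428 and 1281 CPM with CX-5461 and to 841.2, 852.8 and 834.7 CPM with DMSO. No 50-base stretch of the 3 transcripts occurs in another annotated gene. Lgals1 supplied 91.45% to 92.49% of their counts with CX-5461 and 92.74% to 93.04% with DMSO.

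**Figure D2:**
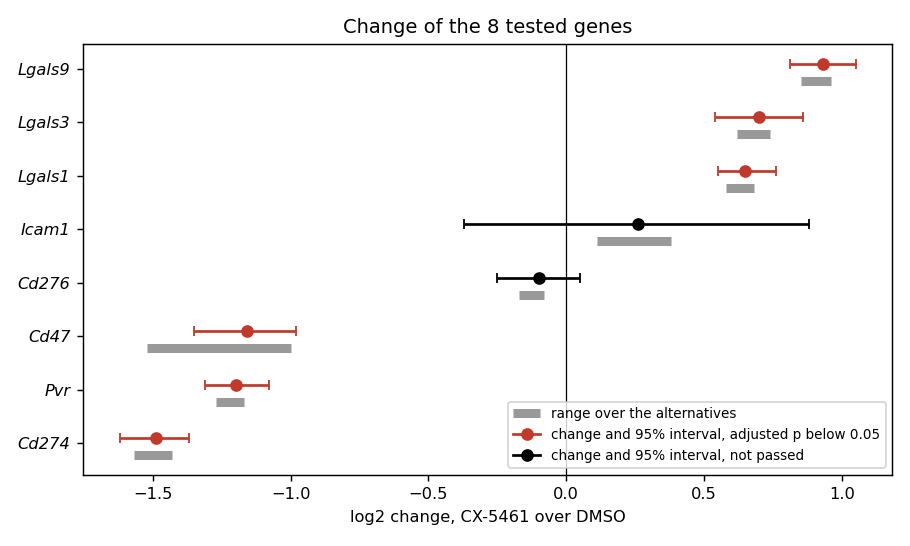
Log2 change (CX-5461 over DMSO) of the 8 tested genes, with points for the estimate, bars for its 95% interval and grey bars below for the range over all alternative analyses. Cd274, Pvr and Cd47 lie between -1.49 and -1.16, Lgals1, Lgals3 and Lgals9 between 0.65 and 0.93, and the intervals of Cd276 and Icam1 cross 0; the longest grey bar, from -1.52 to -1, is that of Cd47.

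Levels of different genes were compared as CPM per kb of annotated exonic length. With CX-5461 Lgals1 stood at 1370 ± 86.5 CPM per kb (SD, n = 3), followed by Lgals9 at 36.3 ± 0.881 and Lgals3 at 16.5 ± 0.984. The surface ligands followed, Pvr at 7.71 ± 0.453, Cd276 at 6.54 ± 0.247, Cd274 at 5.98 ± 0.185 and Cd47 at 2.75 ± 0.245, and Icam1 stood at 0.218 ± 0.045 CPM per kb. No neighbours in this order had overlapping libraries, though the order of Cd276 and Cd274 is not settled, since both overlap genes on the other strand. With DMSO Lgals1 stood at 867 ± 9.42 CPM per kb, followed by Lgals9 at 19.1 ± 1.2, Pvr at 17.7 ± 0.635, Cd274 at 16.9 ± 0.361, Lgals3 at 10.2 ± 0.571, Cd276 at 7.0 ± 0.208, Cd47 at 6.17 ± 0.591 and Icam1 at 0.18 ± 0.0341. There the libraries of Lgals9 and Pvr overlapped, as did those of Pvr and Cd274, so the order of these 3 is not settled. Among the 12133 tested genes with a known length, the level of Cd274 per kb exceeded that of 42.4% with CX-5461 and 71.8% with DMSO. For Lgals3 these shares were 71.7% and 57.7%, so the 2 transcripts changed places in the order.

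**Figure D3:**
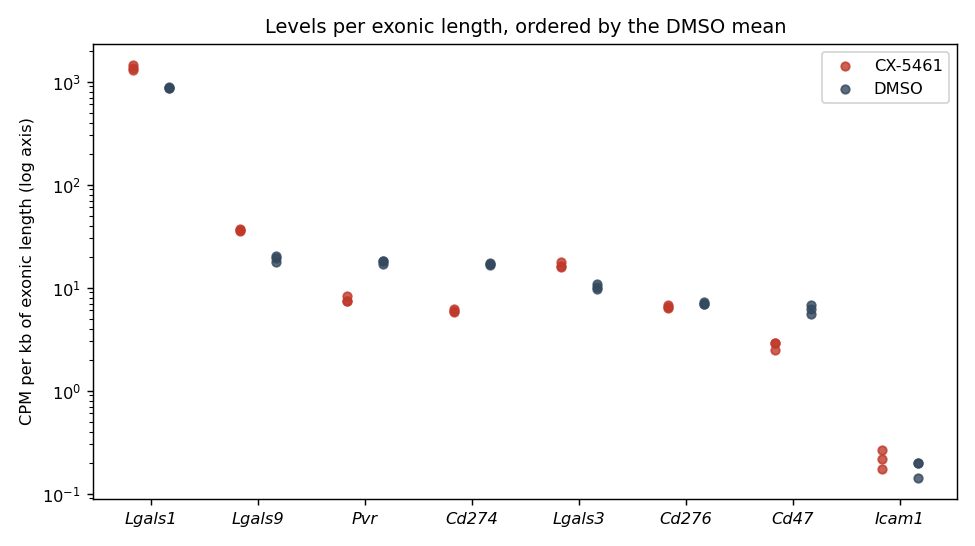
CPM per kb of exonic length on a log axis for the 8 detected genes, ordered by their DMSO mean; each point is 1 library. With CX-5461 the points of Pvr and Cd274 (5.80 to 8.24) lie below those of Lgals3 (15.7 to 17.6), whereas with DMSO they lie above them (16.5 to 18.1 against 9.73 to 10.8).

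Promoters of 3 genes are shown because all are known targets of interferon gamma and yet one fell, one was barely detected and one rose. They are the 250 bases before the start in RefSeq (GRCm38.p6), given 5′ to 3′ on the strand of the gene. These starts differ from the gene coordinates given above. The windows of Cd274 and Icam1 end before the gene starts at 29367455 and 21015985. That of Lgals9 overlaps the gene, which begins at 78984946 on its strand. A stretch just after the RefSeq start was found in an annotated transcript for Lgals9, but not for Cd274 or Icam1. The table used held promoters of 7 of the 9 genes, all but Pvr and Lgals1. Capitals mark matches, on either strand, to the interferon-gamma activated site TTCNNNGAA, the IRF motif (GAAA, any 2 bases, GAAA), the NF-kB motif (GGG, any 3 bases, TTCC) and its palindromic form GGAANTTCC. The motifs were chosen after the sequences had been seen, and the marked matches do not overlap.
Cd274 (chr19:29367188-29367437, + strand): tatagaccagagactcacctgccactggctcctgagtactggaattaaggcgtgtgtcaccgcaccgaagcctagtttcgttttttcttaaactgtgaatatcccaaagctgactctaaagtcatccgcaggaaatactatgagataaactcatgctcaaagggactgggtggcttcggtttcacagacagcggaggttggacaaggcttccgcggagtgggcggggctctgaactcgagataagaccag
Icam1 (chr9:21015690-21015939, + strand): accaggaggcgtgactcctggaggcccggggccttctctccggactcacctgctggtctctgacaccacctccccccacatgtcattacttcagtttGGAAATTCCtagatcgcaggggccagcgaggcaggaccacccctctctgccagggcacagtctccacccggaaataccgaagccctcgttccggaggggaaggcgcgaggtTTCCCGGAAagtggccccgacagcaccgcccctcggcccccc
Lgals9 (chr11:78984925-78985174, - strand): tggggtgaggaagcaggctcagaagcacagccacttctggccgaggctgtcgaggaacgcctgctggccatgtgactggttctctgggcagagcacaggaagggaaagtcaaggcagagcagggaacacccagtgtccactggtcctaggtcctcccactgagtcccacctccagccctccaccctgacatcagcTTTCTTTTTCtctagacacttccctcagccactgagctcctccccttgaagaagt
In Icam1 the palindromic NF-kB form began at position -153 and the interferon-gamma activated site at -42, counted from -1 at the last base before the start. In Lgals9 the IRF motif, read on the opposite strand, began at -55. Cd274 held no match to the 4 motifs in this window, nor did Cd47, Cd276, Cd200 or Lgals3. Only these exact forms were searched. A promoter without a match may still hold a looser form of the IRF motif or of the others. Of 32851 promoter windows of this length, 7.02% hold the interferon-gamma activated site, 2.98% the IRF motif, 4.65% the NF-kB motif and 0.81% its palindromic form. These matches are a description of letters, and binding was not measured.

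Genes of the pathways around the 9 were taken from 7 lists. The counts of each list stand beside the shares over all 12198 tested genes. Of these 37.2% were called higher and 36.5% lower, or 73.7% in either direction. Of 27 genes that act in interferon gamma and NF-kB signalling or that set PD-L1 stability, all were tested: 9 rose, 10 fell and 8 missed the threshold, and their median log2 change was -0.07 (0.03 without CX-5461 replicate 1). The interferon transcription factor Irf1 rose 1.52-fold, and Spop, an adaptor of PD-L1 degradation, 1.34-fold. The NF-kB subunit Relb fell 1.96-fold, the feedback inhibitor Socs3 1.70-fold and the interferon gamma receptor chain Ifngr1 1.41-fold. Irf1 had 31.9, 38.8 and 34.1 CPM with CX-5461, against 23.9, 22.1 and 22.9 CPM with DMSO (adjusted p = 5.53e-06). A link between Irf1 and the changes of Cd274 or Lgals9 was not tested. Only 5 of the list rose when a gene-span offset was combined with a replicate block.

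Other T-cell co-signalling genes mostly had too few counts to be tested, 17 of 24, where 10542 of all 22740 genes had too few. The list also holds receptors and enzymes, and 23 of its genes were found in the table. At most 3 counts in every library were seen for 12 of these, against 9024 of all 22740 genes. Pdcd1lg2, which encodes PD-L2, and Cd86 were among the 12. Of the 6 tested, none rose, 3 fell and 3 missed the threshold (edgeR; none rose at an unadjusted p below 0.05 or with DESeq2 or limma-voom, and 4 rose when no filter on low counts was used), and their median was -0.42 (0.17 with no filter). Tnfsf9, the ligand of 4-1BB, fell 1.28-fold and Ceacam1, an inhibitory adhesion molecule, 1.39-fold. The other gene that fell, Icosl, lay under the 5 CPM set for naming and was named after its values were seen. It fell 3.83-fold, to 0.991 ± 0.0394 CPM with CX-5461 against 3.81 ± 0.336 CPM with DMSO (adjusted p = 2.64e-07). Of 8 nectins and nectin-like molecules, the family of Pvr, 5 were tested, with 1 higher, 1 lower and 3 not passed. Nectin2 (listed under its older symbol Pvrl2), which shares receptors with Pvr, fell 1.23-fold, to 56.6 ± 1.36 CPM with CX-5461 against 69.8 ± 2.66 CPM with DMSO (adjusted p = 9.01e-05). Cadm1, a nectin-like adhesion molecule that spans 327.5 kb, rose by 1.91 ± 0.05 on the log2 scale, or by 0.74 with the gene-span offset. Without CX-5461 replicate 2 or replicate 3 the number of nectins that fell was 3 or 2.

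A list of 16 genes held ligands of phagocytes and natural killer cells and also an enzyme and complement inhibitors. Of these 3 were not found by symbol and 9 were tested. Among those tested 4 rose, 1 fell and 4 missed the threshold (median 0.27). Calr, whose protein calreticulin prompts phagocytosis when it reaches the surface, rose 1.72-fold, to 2550 ± 60 CPM with CX-5461 against 1480 ± 30.2 CPM with DMSO (adjusted p = 2.11e-10). The NKG2D ligand Raet1d rose 1.94-fold, though near-identical relatives may share its reads. Other NKG2D ligands, named after their values were seen, were not called. Raet1e (log2 change of -0.5) and H60b (0.3) did not pass, Ulbp1 had too few counts to be tested and H60c had no count. The complement inhibitor Cd59a rose 1.15-fold. Qpctl, the enzyme that completes the SIRP-alpha binding site of CD47, fell 1.16-fold. The call of Cd59a ended with scaling to library totals only (adjusted p = 0.134) and that of Qpctl with DESeq2 (adjusted p = 0.0715). The call of Cd59a also ended without CX-5461 replicate 3 or DMSO replicate 3 (adjusted p = 0.0702 and 0.114), and that of Qpctl without CX-5461 replicate 3, DMSO replicate 1 or DMSO replicate 3 (0.132, 0.0781 and 0.133). The count of 4 became 2 without DMSO replicate 3. The count of 1 became 2 without CX-5461 replicate 2, and 0 without CX-5461 replicate 3 or DMSO replicate 1 or 3.

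Of 20 immunoglobulin-family and other adhesion molecules, among them Cd44 and tetraspanins, 17 were tested. Of these 10 rose, 2 fell and 5 missed the threshold, where 37.2% of all tested genes were called higher. Their median log2 change was 0.64, but 0.16 with the gene-span offset, under which 8 rose and 3 fell. Mcam, a melanoma cell adhesion molecule, rose 5.12-fold, to 620 ± 28.1 CPM with CX-5461 against 121 ± 1.71 CPM with DMSO (adjusted p = 6.27e-15). Icam2, another LFA-1 ligand, rose 4.21-fold to 5.21 ± 0.148 CPM against 1.24 ± 0.249 CPM. Ncam1, which spans 296.8 kb, rose 2.30-fold but did not pass with the gene-span offset (0.10, adjusted p = 0.3). Bsg, which encodes basigin, fell 1.13-fold.

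**Figure D4:**
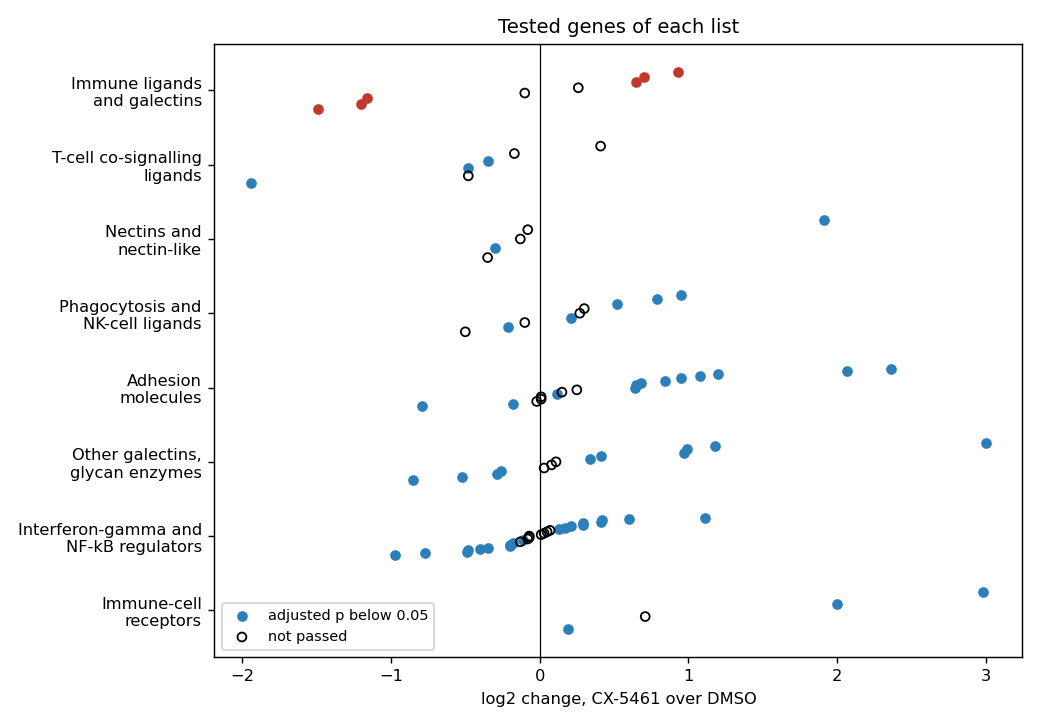
Log2 change (CX-5461 over DMSO) of every tested gene, 1 point per gene, for the ligands and galectins described here (top row) and for the 7 lists around them; filled points passed an adjusted p of 0.05 and open points did not. The top row splits into Cd274, Pvr and Cd47 at -1.49 to -1.16 and the galectins at 0.65 to 0.93, and the adhesion molecules reach 2.36 (Mcam).

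Among the other galectins and the proteins and enzymes that set their glycan ligands, 19 genes in all, 13 were tested, of which 6 rose, 4 fell and 3 missed the threshold (median 0.11). The tandem-repeat galectin Lgals8 fell 1.81-fold, to 143 ± 5.88 CPM with CX-5461 against 259 ± 3.29 CPM with DMSO (adjusted p = 1.5e-10), and the galectin-related Lgalsl 1.43-fold. Lgals4, named after its values were seen, rose 1.96-fold to 7.99 ± 0.829 CPM, against 4.09 ± 0.518 CPM (adjusted p = 1.17e-05). Its near-identical relative Lgals6 was not found by symbol, and sharing of reads with it was not tested. Lgals2 and Lgals12 had no count in any library. Lgals3bp, a secreted protein bound by galectin-3, rose 2.27-fold to 668 ± 16.9 CPM, against 294 ± 5.98 CPM. Mgat5, the enzyme that makes the branched N-glycans favoured by galectin-3, rose by 3.00 ± 0.10 on the log2 scale and spans 283.3 kb, with 1.94 under the gene-span offset. St6gal1, a sialyltransferase whose product masks galectin-1 binding sites, rose 1.99-fold and spans 135.6 kb. Its log2 change ran from 0.52 to 1.02 over the alternatives, and from 0.96 to 1.02 with single libraries left out. Lamp2, a lysosomal glycoprotein, fell 1.22-fold, a call that ended with an offset for GC content (-0.02, adjusted p = 0.593).

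Receptors of the 9 molecules on immune cells were silent for 7 of 12 genes, where 9024 of all 22740 genes had at most 3 counts. Of 12 such genes 4 were tested, and 3 rose, none fell and 1 did not pass (edgeR; none fell at an unadjusted p below 0.05 or with DESeq2 or limma-voom). Pdcd1, Cd226 and Tigit, receptors for PD-L1 and Pvr, had no count in any library, nor had Itgam and Trem2. Cd96, Cd200r1 and Cd200r4 reached at most 4, 2 and 3 counts. Sirpa, the receptor of CD47, was abundant, with 702, 670 and 672 CPM with CX-5461 against 607, 584 and 600 CPM with DMSO, a 1.14-fold rise (adjusted p = 0.000703). Havcr2, which encodes TIM-3, rose to 5.90, 6.33 and 5.00 CPM with CX-5461, against 0.765, 0.386 and 1.06 CPM with DMSO (2.98 ± 0.24 on the log2 scale, adjusted p = 2.3e-08). Of the 2 subunits of LFA-1, Itgb2 had 2.76 ± 0.079 CPM with CX-5461 and 0.699 ± 0.411 CPM with DMSO (adjusted p = 1.19e-05), and Itgal 0.697 ± 0.0942 and 0.417 ± 0.131 CPM (adjusted p = 0.0883). The leukocyte markers listed above also summed higher with CX-5461, though 11 of the 15 had at most 3 counts in every library. Only Lyz2 of that list was called higher. The part of leukocytes in these values was not tested.

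For each tested gene of the 9, the 2 genes with the most similar pattern over the 6 libraries were found among 9899 candidates, by the root mean square difference of log2 profiles centred on each gene's mean. For Cd274 these were Slc1a5, a glutamine transporter, at 0.036, and Tbl2 at 0.044. Pvr lay nearest to C1galt1 (0.038), the enzyme that extends O-glycans, and to Tab2 (0.04), and Cd47 to the protease gene Ctsc (0.044) and the interferon-stimulated gene Isg15 (0.05). Lgals1 lay nearest to Igfbp4 (0.026) and to Cst3 (0.027), which encodes cystatin C. Lgals9 lay nearest to Nsmce2 (0.019) and Frmd8 (0.027), and Lgals3 to Bclaf1 (0.034) and Stau2 (0.035). The genes nearest to Cd276 were Rilpl1 (0.012) and Kti12 (0.014), and those nearest to Icam1, whose own profile is noisy, were Fsd1l (0.083) and C8g (0.11). With 2 groups of 3 libraries such likeness rests mainly on a similar size of change.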

How the data were processed

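RNA of 6 libraries of B16 cells was measured, 3 with CX-5461 and 3 with DMSO, grouped by the sample titles. The authors deposited whole-number read counts per protein-coding gene, not normalized, as column totals that differ show. The submitters' processing notes name the builds GRCm38 and mm10. Aligner, counting tool, annotation and strand setting: not given in the sources used here. No label says whether replicates were separate cultures, so p-values measure the spread between these samples, which may be technical.

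Genes were kept by filterByExpr (minimum count of 10) in edgeR 4.0.16 under R 4.3.3, which left 12198 of 22740 genes. TMM factors were used with the quasi-likelihood F test, two-sided, with treatment as the only term and Benjamini-Hochberg adjustment over all tested genes. Changes are CX-5461 over DMSO; each standard error was derived from the estimate and its F statistic. A gene with at most 3 counts in every library was called silent. Counting limits cover counting error only.

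Gene coordinates, spans and exonic lengths are from GENCODE M21 (GRCm38), where 21919 identifiers matched. The genes and lists were chosen with earlier results of these data known. All 9 genes were named, and from each list up to 3 genes with the largest called change in each direction with a group mean of at least 5 CPM (otherwise its most abundant gene), plus receptors of the 9; a gene that this rule picks is not reported here. The test was checked on simulated counts, where it recovered 48 of 50 genes changed 2-fold and 33 of 50 changed 1.25-fold among 12118 genes. There 9 of 186 calls were false. Few genes were changed in the simulation, equally often up and down, with the same dispersion for every gene. In the data 73.7% of tested genes were called, so these rates may not hold for them. Alternatives were DESeq2 1.42.0, limma-voom (limma 3.58.1), other scaling and filters, offsets for gene span and GC content, a replicate block, thinned counts, an adjusted p of 0.01 and each library left out in turn.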

Additional observations from a re-analysis of the deposited data

How the results depend on the processing

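Cd274, Cd47, Pvr, Lgals1, Lgals3 and Lgals9 kept their direction and their call under all 19 alternatives. Their log2 changes ran from -1.57 to -1.43, from -1.52 to -1, from -1.27 to -1.17, from 0.58 to 0.68, from 0.62 to 0.74 and from 0.85 to 0.96. The extremes of Cd47 came with the offsets for gene span (-1.52) and GC content (-1). Cd276 passed under 1 alternative, scaling to library totals only (-0.17, adjusted p = 0.0386). Icam1 passed under none of 18 and could not be tested with a filter of 1 CPM in 3 libraries. With single libraries left out Cd276 ran from -0.13 to -0.08 and Icam1 from 0.11 to 0.38. Same-numbered libraries of the 2 groups did not deviate together (correlations of 0.035, -0.002 and -0.064 over 10331 genes). No pairing by number was visible, though so few libraries cannot exclude one. With the replicate block the calls of the 8 genes were the same, with Cd276 at -0.10 (adjusted p = 0.265) and Icam1 at 0.27 (0.45). For the lists 245 of the counts under alternatives stayed within 1.5 times and 21 moved further, and of their medians 104 stayed within 1 SD of the values with single libraries left out and 48 moved further. The adhesion median ran from 0.16 to 0.65, the interferon and NF-kB median from -0.16 to 0.03 and the T-cell co-signalling median from -0.49 to 0.17 (positive with no filter on low counts). Depth limits Icam1 and Cd200.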
